A study of Mus musculus with 8 samples.

Results

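The genes described here are 6 metabotropic glutamate receptor genes of the mouse, Grm2, Grm3, Grm4, Grm5, Grm7 and Grm8. They were found by symbol in the table of all 55032 genes, and each symbol had 1 entry. All 6 had enough counts to be tested, among 18294 genes of the transcriptome that passed the same filter. Striatum was taken at postnatal day 60 (P60) from female mice of the C57BL/6 strain. One group of 4 was wild type (WT). The other group of 4, labelled 16p11.2+/-, carried a heterozygous deletion on chromosome 7 that models the human 16p11.2 microdeletion. It came from a Jackson Laboratory line kept on the B6/C57 background, which carries the deletion through the germline. Every mouse gave a library of its own from total RNA, so the unit of replication was the mouse, and mice are named below by the numbers of their labels.

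Metabotropic glutamate receptors are G-protein-coupled receptors that glutamate activates more slowly than its ion channels. Group I, to which the product of Grm5 (mGluR5) belongs, couples through Gq to phospholipase C, inositol trisphosphate and calcium release, and lies mostly on dendrites next to the synapse. Group II (Grm2 and Grm3) and group III (Grm4, Grm7 and Grm8) couple through Gi/o to inhibition of adenylyl cyclase, and many of them act on axon terminals to reduce transmitter release. In the striatum, medium spiny neurons carry mGluR5, astrocytes are a known source of mGluR3, and mGluR2 is known from the terminals of axons that arrive from other regions. RNA of a terminal's receptor is mostly made in the cell body, so that RNA of a striatal piece reports the cells whose bodies lie in that piece.

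The totals of reads counted on genes were 15125051 to 16387993 in WT mice and 15240680 to 16523429 in 16p11.2+/- mice. Counts of mice of the same group differed more than sampling alone gives (a chi-square of 8.81 to 62.7 for each degree of freedom), and no library was merged with another. The genotype labels were checked on Mapk3, which lies in the deleted segment and had an FPKM (the count scaled to gene length and to the library total) of 35.7 to 46.4 in WT and 20.7 to 22.3 in 16p11.2+/- mice (edgeR, log2 fold change -0.94, SE 0.097, adjusted p = 0.00986). The tissue label was checked on 10 markers of medium spiny neurons, the principal neurons of the striatum, and none of them was at 0 in any mouse. Their score, which is the mean log2 CPM (the count scaled to the library total), was 7.74 to 8.48 in WT. In 16p11.2+/- mice it was 8.43 in DF-1018 and 8.27 in DF-1059, but 6.39 in DF-1037 and 5.96 in DF-1062. A score of 9 thalamic neuron markers was 3.44 to 3.58 in 3 WT mice and 4.04 in DF-1059, against 7.24 in WT-1063, 6.34 in DF-1018, 7.24 in DF-1037 and 6.5 in DF-1062. The libraries therefore did not hold the same mixture of markers, and values without these mice are given beside the receptors that they touch. In bulk tissue, fewer cells of a type and less RNA per cell cannot be told apart. Both mice of low medium spiny neuron score were 16p11.2+/-, so fits with that score as a covariate cannot fully separate it from genotype. High thalamic scores were also uneven between the groups (WT-1063 against DF-1018, DF-1037 and DF-1062), so the same limit holds for fits with the thalamic score.

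None of the 6 receptor genes passed the test between the groups at an adjusted p under 0.05 (edgeR, 0 of 6, against 20 of 18294 genes or 0.109% over the transcriptome). None had an unadjusted edgeR p under 0.05 either, where the background was 790 genes or 4.32%. DESeq2 and limma-voom also called 0 of the 6. No receptor had groups that did not overlap in FPKM, a pattern that 517 genes or 2.83% of those tested had. What differed was the behaviour of the genes among mice. Grm5 and Grm3 were the most abundant. Grm5 was lowest in the mice with the lowest medium spiny neuron scores (DF-1037 and DF-1062), and Grm3 was lowest in DF-1062. Grm2 varied 11.9-fold among mice and was highest in DF-1037 and DF-1062, and Grm7 was nearly level.

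**Figure D1:**
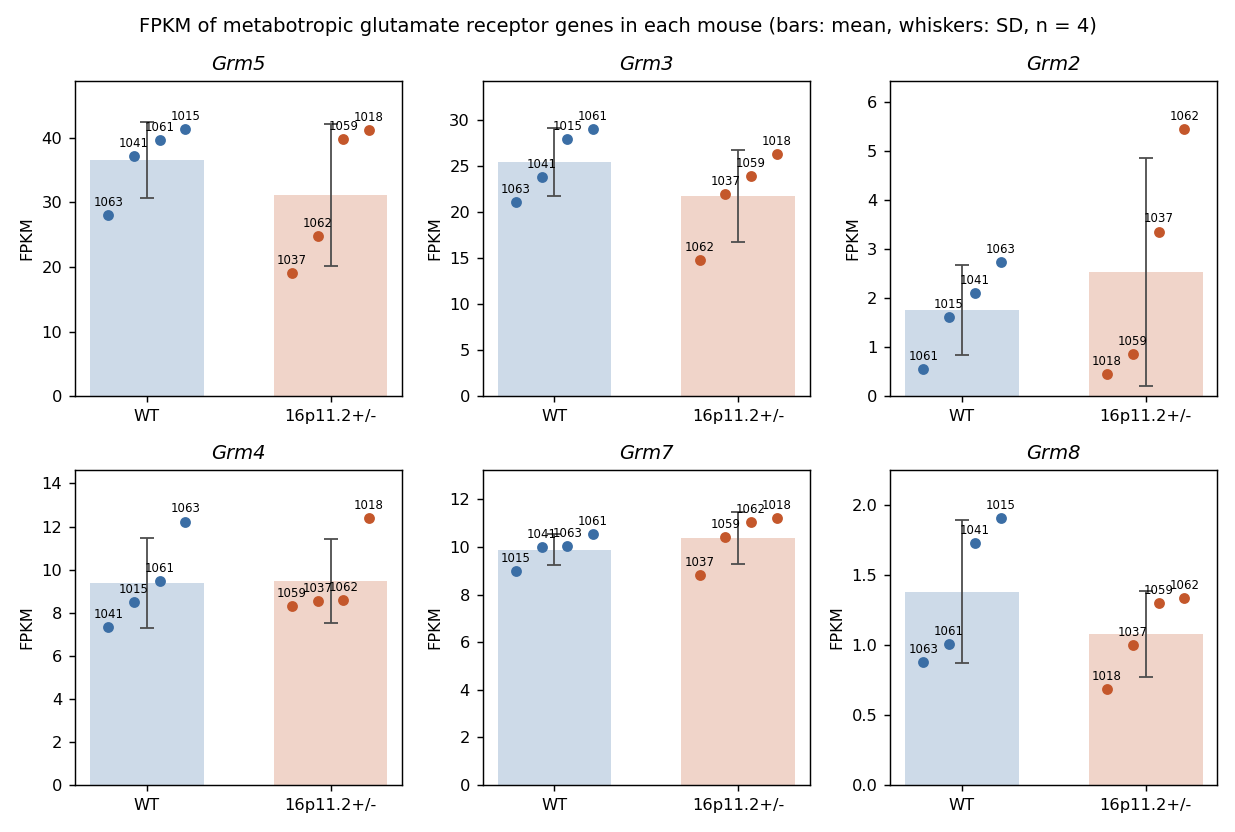
FPKM of the 6 receptor genes in each mouse (points, with the number of the mouse), with the mean of each group as a bar from 0 and the SD over 4 mice as whiskers. The groups overlap for every gene, and Grm2 spans 0.456 to 5.44 FPKM while Grm7 stays between 8.83 and 11.22 FPKM.

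By mean FPKM, a level per gene length, the order was Grm5, Grm3, Grm7, Grm4, Grm2 and Grm8. The FPKM of the 6 genes summed to 62.8 to 92.3 per mouse, of which Grm5 made up 30.3% to 47.0% and Grm3 22.5% to 35.1%. Grm5 exceeded Grm3 in 7 of the 8 mice, and DF-1037 was the mouse with the opposite order, but over mice their ranges overlapped. Grm3 exceeded Grm7 in 8 of 8 mice, and the lowest Grm3 value of 14.8 FPKM was above the highest Grm7 value of 11.22 FPKM. Grm7 and Grm4 did not differ beyond their spread, with Grm7 above Grm4 in 6 of 8 mice. Grm4 exceeded Grm2 in 8 of 8 mice without overlap (7.35 against 5.44 FPKM), whereas Grm2 exceeded Grm8 in 4 of 8 mice. Among all genes tested, Grm5 stood at the 93.5th percentile of mean FPKM, Grm3 at the 89.7th, Grm7 at the 73.5th, Grm4 at the 71.8th, Grm2 at the 35.4th and Grm8 at the 24.4th.

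The genes lie on 5 chromosomes and span 13 kb to 921.6 kb. They are placed by GENCODE M21 (GRCm38), in which the exon length equals the length implied by the deposited FPKM for each of the 6 genes. Grm5 (ENSMUSG00000049583) lies on chromosome 7 from 87584168 to 88134907 on the plus strand, and is the 1 member on the chromosome of the deletion. Grm3 (ENSMUSG00000003974) lies on chromosome 5 from 9485541 to 9725170 on the minus strand. Grm2 (ENSMUSG00000023192), the shortest with 13 kb, lies on chromosome 9 from 106643095 to 106656082 on the minus strand. Grm4 (ENSMUSG00000063239) lies on chromosome 17 from 27422387 to 27521403 on the minus strand. Grm7 (ENSMUSG00000056755), the longest with 921.6 kb, lies on chromosome 6 from 110645581 to 111567230 on the plus strand. Grm8 (ENSMUSG00000024211) lies on the same chromosome from 27275119 to 28135178 on the minus strand. The strand setting of the counting is not given in the sources used here, and 9.6% of the Grm2 exon length is shared with Gm28111 on the opposite strand, against 2.21% for Grm7 with Gm20387, 0.97% for Grm8 with Mir592 and none for Grm3, Grm4 and Grm5. Reads in the part shared by Grm2 and Gm28111 could have been counted for either gene or for neither. The effect on the Grm2 values was not tested.

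Both group II genes had a promoter window in the RefSeq table (GRCm38.p6, 300 bases around the start of the transcript), and these are shown because Grm2 and Grm3 belong to 1 group and ran in opposite directions among mice. Each is written from 5′ to 3′ on the minus strand of the gene, and the capitals mark GC boxes (GGGCGG on either strand), the motif to which Sp family factors bind. Grm2 is at chr9:106656060-106656359 and Grm3 at chr5:9725303-9725602. The Grm2 window contains the GENCODE M21 start of the gene (106656082), but the Grm3 window lies wholly before its GENCODE M21 start (9725170). The RefSeq start used for Grm3 therefore differs from the gene model used above.
Grm2: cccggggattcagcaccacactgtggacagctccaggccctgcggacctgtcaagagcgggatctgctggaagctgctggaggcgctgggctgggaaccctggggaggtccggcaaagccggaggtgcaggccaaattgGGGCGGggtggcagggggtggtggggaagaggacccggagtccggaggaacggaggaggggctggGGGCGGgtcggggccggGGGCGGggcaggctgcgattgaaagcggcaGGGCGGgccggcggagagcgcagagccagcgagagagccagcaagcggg
Grm3: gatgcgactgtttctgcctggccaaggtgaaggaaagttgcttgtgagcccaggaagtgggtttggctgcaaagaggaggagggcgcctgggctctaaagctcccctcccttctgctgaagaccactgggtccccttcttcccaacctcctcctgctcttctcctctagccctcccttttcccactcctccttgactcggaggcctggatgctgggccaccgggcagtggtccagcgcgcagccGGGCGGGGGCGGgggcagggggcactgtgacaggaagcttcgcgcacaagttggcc
The Grm2 window held 4 GC boxes and the Grm3 window 2, the latter directly adjoining each other, and 35.7% of all 32851 promoter windows held at least 1. The GC content was 72.0% for Grm2 and 63.7% for Grm3, at the 93.5th and 79.7th percentile of all windows, whose median was 52.7%. Neither window held TGACG (the core of the cAMP response element, found in 20.8% of all windows on either strand), TATAAA (13.6%) or CANNTG (the E box, 72.3%). Of the group III genes, Grm7 had 2 overlapping windows that shared the same 1 GC box, and Grm8 had 3 windows, of which 1 held a GC box. Grm4 and Grm5 had no entry. These matches describe letters in a window and not binding.

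Grm5, the group I receptor, was the most abundant of the 6 and showed its lowest levels in the mice with the lowest medium spiny neuron scores. Its FPKM in WT mice was 41.3 in WT-1015, 37.1 in WT-1041, 39.7 in WT-1061 and 28.1 in WT-1063. In 16p11.2+/- mice it was 41.2 in DF-1018, 19.0 in DF-1037, 39.8 in DF-1059 and 24.7 in DF-1062. DF-1018 and DF-1059 thus lay within the upper WT values, and DF-1037, DF-1062 and WT-1063 were the low mice. WT mice had a mean of 36.5 ± 5.91 FPKM (SD, n = 4), and the mean of 16p11.2+/- mice was 31.2 ± 11 FPKM (SD, n = 4). The log2 fold change of -0.24 (SE 0.26, 95% interval -0.84 to 0.35) was smaller than its error (edgeR, adjusted p = 0.874), and the exact two-sided permutation test of FPKM gave p = 0.400, where 4 mice against 4 allow a smallest p of 0.0286. As a fold, the interval ran from 0.558 to 1.276. The medium spiny neuron score of the 3 low mice was 6.39, 5.96 and 7.74, against 7.90 to 8.48 in the other 5. Without DF-1037 and DF-1062, the log2 fold change of Grm5 was 0.15 (adjusted p = 0.995 in edgeR), and with the score as a covariate it was 0.06 (95% interval -0.25 to 0.37). DF-1037 and DF-1062 were the lowest in Grm5, so leaving them out was bound to raise the 16p11.2+/- mean.

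Grm3, a group II receptor of neurons and astrocytes, had the second highest level. Its FPKM was 28.0 in WT-1015, 23.8 in WT-1041, 29.1 in WT-1061 and 21.1 in WT-1063. The 16p11.2+/- values were 26.3 in DF-1018, 22.0 in DF-1037, 23.9 in DF-1059 and 14.8 in DF-1062. Only DF-1062 lay below the WT range, and the other 3 fell inside it. The WT mean was 25.5 ± 3.71 FPKM (SD, n = 4), against 21.8 ± 4.96 FPKM (SD, n = 4) for 16p11.2+/- mice. The log2 fold change was -0.24 (SE 0.20, 95% interval -0.69 to 0.21, edgeR adjusted p = 0.859; exact permutation test, p = 0.314). It was -0.01 both without DF-1037 and DF-1062 and with the medium spiny neuron score as a covariate. DF-1037 and DF-1062 were the lowest of their group in Grm3, so leaving them out was bound to raise the 16p11.2+/- mean. The score of 9 astrocyte markers, none of them at 0, was 6.75 to 7.20 in WT and 6.86 to 7.13 in 16p11.2+/- mice and was lowest in WT-1015, a mouse with high Grm3. Whether astrocytes had a part in the Grm3 values was not tested.

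Grm2, the other group II receptor, was low and the most variable of the 6. The counts behind it were 120, 158, 44 and 216 in WT-1015, WT-1041, WT-1061 and WT-1063. They were 34, 252, 68 and 440 in DF-1018, DF-1037, DF-1059 and DF-1062. In FPKM this was 1.62, 2.11, 0.549 and 2.73 in WT mice and 0.456, 3.36, 0.855 and 5.44 in 16p11.2+/- mice, in the same order. Both the lowest and the highest mouse were 16p11.2+/-, and the WT mice lay between them. The SD of log2 CPM within groups was 1.32, which was at the 98.6th percentile of all genes tested. The WT mean of 1.75 ± 0.922 FPKM (SD, n = 4) and the 16p11.2+/- mean of 2.53 ± 2.33 FPKM (SD, n = 4) therefore gave a log2 fold change of 0.48 with a wide error (SE 0.73, 95% interval -1.17 to 2.13, edgeR adjusted p = 0.897; exact permutation test, p = 0.6). As a fold, this interval ran from 0.446 to 4.39, so that a change of either direction was not detectable with these mice.

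The Grm2 level ran in the reverse order of the medium spiny neuron score, apart from an exchange of places between WT-1015 and DF-1059 and another between WT-1061 and DF-1018. Grm2 was highest in DF-1062 and DF-1037, which had the lowest scores (5.96 and 6.39), and next in WT-1063 and WT-1041 (7.74 and 7.90). It was lowest in DF-1018 and WT-1061, the mice with the highest scores (8.43 and 8.48). The thalamic score did not order Grm2 in this way, since DF-1018 had a score of 6.34 and the lowest Grm2. The cortical neuron score was 5.65 in DF-1037 and 2.14 in DF-1062, the 2 mice highest in Grm2. The sign of the Grm2 difference depended on these mice and scores. Without DF-1062 alone, the log2 fold change was -0.16. It was -1.41 without DF-1037 and DF-1062 (unadjusted p = 0.0541, adjusted p = 0.995 in edgeR). DF-1037 and DF-1062 were the highest mice in Grm2, so leaving out either or both was bound to lower the mean of their group. The direction of these changes was thus set by the choice of mice. With the medium spiny neuron score as a covariate the log2 fold change was -1.11 (95% interval -1.91 to -0.31, unadjusted p = 0.0128, adjusted p = 0.9995). With the thalamic score as a covariate the log2 fold change was -0.22. None of these adjusted values passed the threshold, and the part of the tissue mixture in the Grm2 values was not tested beyond these fits.

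**Figure D2:**
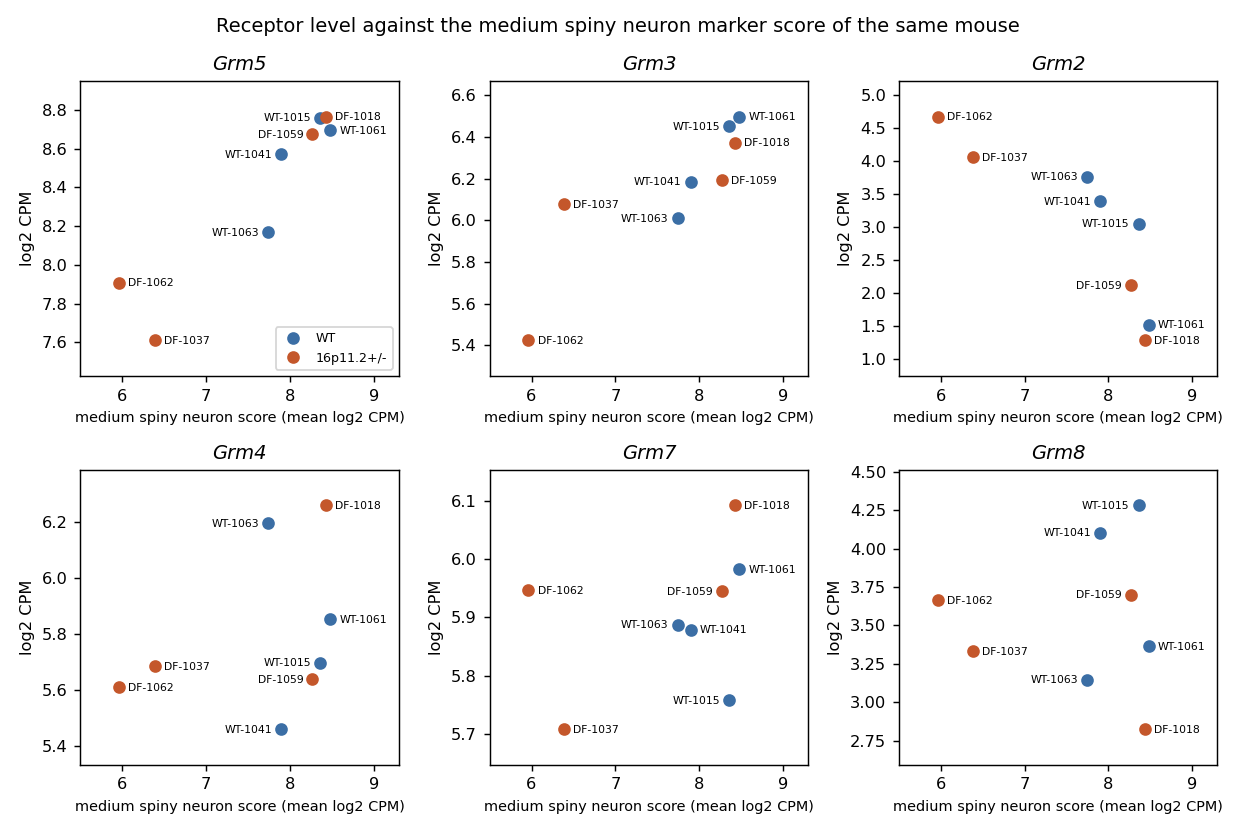
Level of each receptor gene (log2 CPM) against the medium spiny neuron marker score of the same mouse (mean log2 CPM of 10 markers), with 1 labelled point per mouse. Grm5 is lowest and Grm2 highest in the mice of lowest score (DF-1037 and DF-1062), and Grm3 is lowest in DF-1062, with DF-1037 inside the WT range.

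Grm4, a group III receptor of axon terminals, had nearly equal means in both groups and 1 high mouse in each. Its FPKM was 8.47 in WT-1015, 7.35 in WT-1041, 9.47 in WT-1061 and 12.2 in WT-1063. The 16p11.2+/- mice had 12.4 in DF-1018, 8.56 in DF-1037, 8.29 in DF-1059 and 8.61 in DF-1062. WT-1063 and DF-1018 stood above the other 6, and both had a high thalamic score (7.24 and 6.34), but DF-1037 and DF-1062 had high thalamic scores with ordinary Grm4. WT mice averaged 9.38 ± 2.09 FPKM (SD, n = 4), where 16p11.2+/- mice averaged 9.47 ± 1.96 FPKM (SD, n = 4). The log2 fold change was -0.0030 (SE 0.19, 95% interval -0.44 to 0.43, edgeR adjusted p = 0.998; exact permutation test, p = 0.857), and its sign changed with the scaling, for instance to 0.012 with library totals. The interval still allowed a fold of 0.738 to 1.35.

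Grm7, the group III receptor of active zones, was the steadiest member. Its FPKM was 8.97, 9.98, 10.5 and 10.04 in WT-1015, WT-1041, WT-1061 and WT-1063, and 11.22, 8.83, 10.4 and 11.04 in DF-1018, DF-1037, DF-1059 and DF-1062. The highest mouse had 1.27 times the lowest. Of the mice with the lowest medium spiny neuron scores, DF-1037 was the lowest in Grm7 and DF-1062 was second to DF-1018. The within-group SD of log2 CPM was 0.130, at the 20.3rd percentile of all genes tested. WT mice averaged 9.88 ± 0.653 FPKM (SD, n = 4) and 16p11.2+/- mice 10.4 ± 1.09 FPKM (SD, n = 4), with a log2 fold change of 0.05 (SE 0.093, 95% interval -0.16 to 0.26, edgeR adjusted p = 0.918; exact permutation test, p = 0.486). As a fold the interval was 0.894 to 1.2, the narrowest of the 6 genes.

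Grm8, also of group III, had the lowest mean. Its FPKM was 1.91 in WT-1015, 1.73 in WT-1041, 1.01 in WT-1061 and 0.881 in WT-1063. In 16p11.2+/- mice it was 0.683 in DF-1018, 1 in DF-1037, 1.30 in DF-1059 and 1.34 in DF-1062, from 103 to 286 counts per mouse over both groups. WT-1015 and WT-1041 were above every 16p11.2+/- mouse, and the other 2 WT mice lay among them. The WT mean of 1.38 ± 0.512 FPKM (SD, n = 4) and the 16p11.2+/- mean of 1.08 ± 0.305 FPKM (SD, n = 4) gave a log2 fold change of -0.38 (SE 0.30, 95% interval -1.05 to 0.29, edgeR adjusted p = 0.859; exact permutation test, p = 0.371). The difference was -0.06 with the thalamic score as a covariate, -0.18 with the cortical neuron score and -0.46 with the medium spiny neuron score. It was -0.17 without WT-1015.

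**Figure D3:**
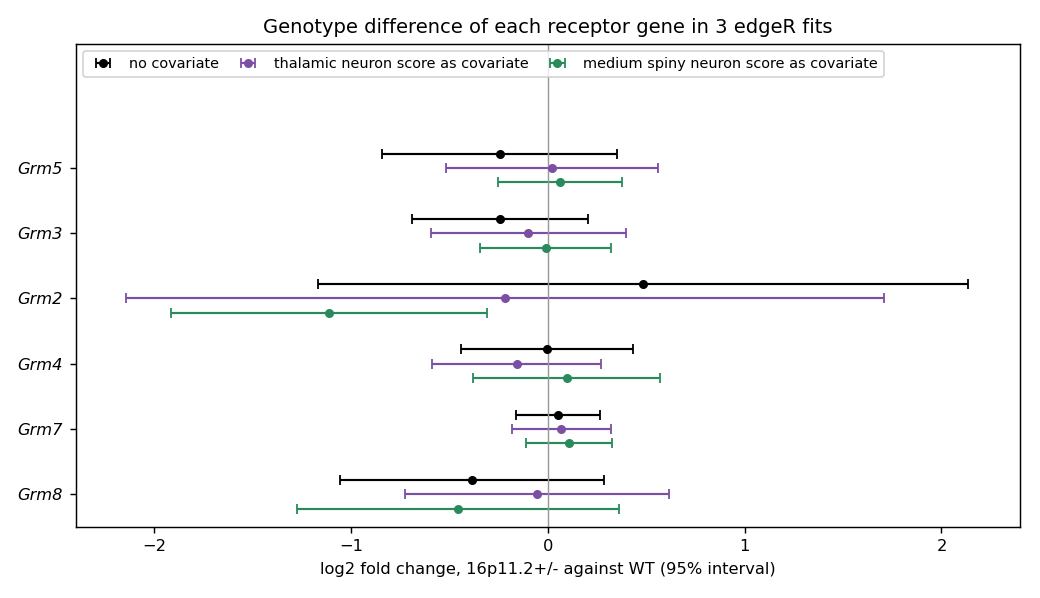
Log2 fold change of each receptor gene (16p11.2+/- against WT) with its 95% interval in 3 edgeR fits, without a covariate and with the thalamic or the medium spiny neuron score as a covariate. The point of Grm2 moves from 0.48 to -0.22 and -1.11, while Grm7 stays between 0.05 and 0.11.

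Some receptors moved together or apart among mice of the same group. After the mean of each group was subtracted, log2 CPM of Grm3 and Grm5 had a Pearson r of 0.664 over the 8 mice. Grm2 ran against both, with r of -0.845 against Grm3 and -0.849 against Grm5. Grm7 had r of 0.613 with Grm5 and -0.631 with Grm2. Grm4 and Grm8 also ran apart (r = -0.879), since DF-1018 and WT-1063 were high in Grm4 and low in Grm8. All these values rest on the same 8 libraries, whose marker mixture differed, and are given as descriptions.

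Among 12987 other genes compared by the same measure, those most like Grm5 were Gucy1b1 (r = 0.996, Spearman rho 0.952), a subunit of the nitric oxide receptor guanylyl cyclase, and Slc9a5 (r = 0.996, rho 1), a sodium/proton exchanger. Gucy1b1 had 47.7 to 61.1 FPKM in WT and 36.6 to 62.9 FPKM in 16p11.2+/- mice, so that it shared the wide range of Grm5 in the latter. The closest to Grm3 were Abcb9 (r = 0.998, rho 1), a lysosomal peptide transporter, and Tpm1 (r = 0.991, rho 0.905), a tropomyosin. For Grm2 they were Pycrl (r = 0.992, rho 1), a proline synthesis enzyme, and Fbxo22 (r = 0.990, rho 0.952), an F-box protein of ubiquitin ligases. Pycrl ranged from 5.56 to 7.85 FPKM in WT and from 6.32 to 12.2 FPKM in 16p11.2+/- mice. Grm4 was matched most closely by Prkch (r = 0.984, rho 0.929), a protein kinase C, and Tax1bp1 (r = 0.974, rho 0.929), an autophagy receptor. Grm7 was matched by Ttc8 (r = 0.982, rho 0.976), a subunit of the ciliary BBSome, and Efl1 (r = 0.972, rho 0.833), a GTPase of ribosome maturation. Grm8 was matched by Hunk (r = 0.960, rho 0.952), a kinase, and Sox4 (r = 0.956, rho 0.881), a transcription factor. None of these 12 genes passed the test between the groups, with adjusted p of at least 0.859 in edgeR. They were picked for the highest r among 12987 genes over 8 libraries of differing marker mixture. A high r was thus favoured by the choice, and the values are given as descriptions.

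Grm6, the receptor of retinal ON bipolar cells and not on the list, had at most 2 counts in a mouse (0.0242 FPKM) and was not tested.

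The genes through which the receptors act gave 0 calls as well. In 7 lists of 71 genes in all, 71 were tested, none had an adjusted p under 0.05 in edgeR (0.109% of all genes tested), and 1 had an unadjusted p under 0.05 (4.32% of all genes tested). The log2 fold change was positive for 35 and negative for 36, with a median of -0.0016, against a median of -0.0093 over all genes tested. The 1 gene was Gnai3, an inhibitory G-protein alpha subunit to which group II and III receptors couple. Gnai3 had 13.8 to 16.1 FPKM in WT and 12.4 to 13.2 FPKM in 16p11.2+/- mice without overlap, as 2.83% of all genes tested did, and its log2 fold change of -0.23 (SE 0.072, edgeR unadjusted p = 0.0125) had an adjusted p of 0.859.

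Among 11 partners and scaffolds of group I receptors, 4 log2 fold changes were positive and 7 negative, with a median of -0.04 and a range of -0.56 to 0.38. The highest level was that of Ncdn (neurochondrin), a protein that binds mGluR5, with 279 FPKM in WT and 269 FPKM in 16p11.2+/- mice (log2 fold change -0.07). Of 15 group I signalling genes, 5 were positive and 10 negative, with a median of -0.12 and a range of -0.42 to 0.71. There Prkcb, the beta isoform of protein kinase C, had the highest level, 77.1 ± 17.1 FPKM in WT and 60.2 ± 25.3 FPKM in 16p11.2+/- mice (SD over 4 mice each), with a log2 fold change of -0.37 (SE 0.34).

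For the 14 signalling genes of groups II and III the split was 9 positive and 5 negative, with a median of 0.07. Their 8 partner proteins split 4 and 4 with a median of 0.02. The 7 regulators of receptor activity had a median of 0.10. Rgs4, which speeds the turn-off of Gq and Gi proteins, had 177 FPKM in WT and 151 FPKM in 16p11.2+/- mice, with a log2 fold change of -0.24 (SE 0.36). The 10 genes of glutamate supply and uptake had a median of -0.03. Glul, the glutamine synthetase of astrocytes, was their most abundant member with 589 and 565 FPKM (log2 fold change -0.08). The 6 genes of N-acetylaspartylglutamate, a peptide agonist of mGluR3, had a median of 0.20. Nat8l, which makes its precursor N-acetylaspartate, had 33.8 ± 4.40 FPKM in WT and 40.4 ± 7.70 FPKM in 16p11.2+/- mice (SD over 4 mice each), with a log2 fold change of 0.24 (SE 0.15). The values of Prkcb, Rgs4, Ncdn, Glul and Nat8l did not differ between the groups beyond their spread, and their adjusted p was at least 0.859 in edgeR.

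**Figure D4:**
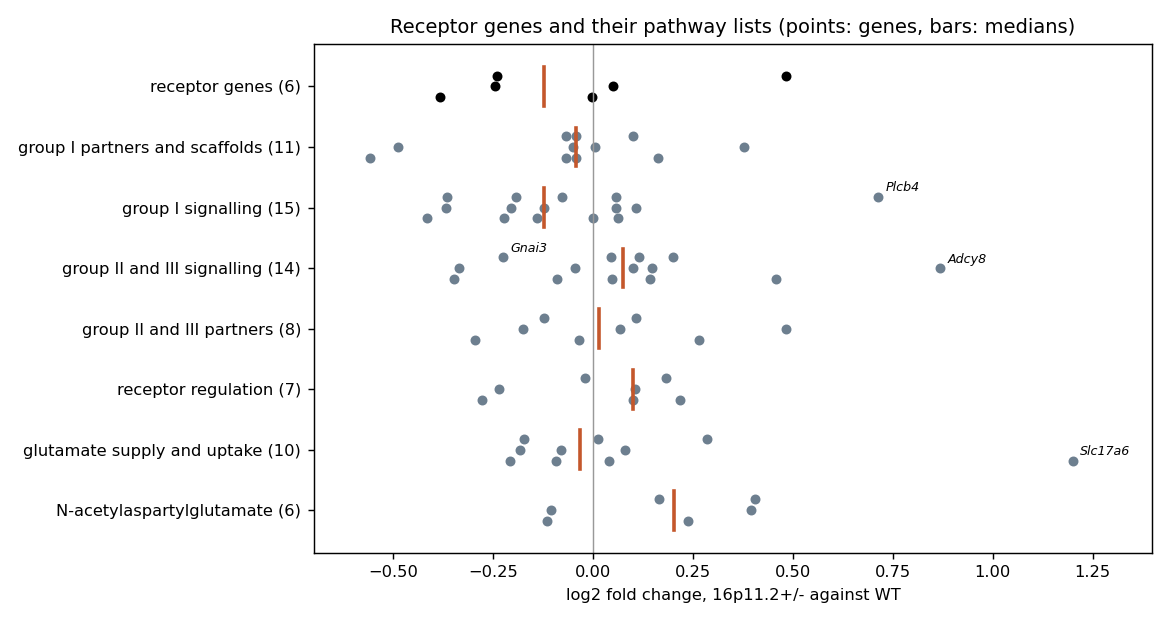
Log2 fold change (16p11.2+/- against WT) of the 6 receptor genes and of the genes of 7 pathway lists (points, the number tested in brackets), with the median of each row as a bar. The medians lie between -0.12 and 0.20, and Slc17a6 has the highest value of 1.2 with an SE of 1.16.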

How the data were processed

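Per the study's methods, paired reads were trimmed of adapters and poor bases, mapped with Hisat2 and counted with Htseq-count, and the authors deposited the raw counts per gene and mouse. The deposited FPKM values equal the count over a gene length and the total of the mouse. The length implied was within 1% of GENCODE M21 for 95.7% of 13101 genes with at least 50 counts. The submitters' processing notes instead name Bowtie 0.12.2 and the builds mm8 and mm9, which conflicts with these lengths and with Hisat2. The annotation and strand setting are not given in the sources used here. A deposited table of the authors' comparison (group means, fold changes and p-values) and a summary of FPKM in bins were not used.

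Counts of all 8 mice were tested with the quasi-likelihood test of edgeR 4.0.16 (R 4.3.3). Scaling was by TMM, filterByExpr kept genes at a count minimum of 10 and a total of at least 15, and p was adjusted by Benjamini-Hochberg over all genes tested, with a threshold of 0.05. The standard error came from the F statistic. Exact two-sided permutation tests of FPKM ran over 70 assignments of the mice, and log2 CPM used a prior count of 2. The labels name the samples by mouse and give no batch, and p-values measure the spread between these mice. The code was tested on simulated data.

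The members, gene lists, tests and the alternatives were chosen with earlier results of these data known. Named were the 6 members, the 2 genes of highest Pearson r with each (mean log2 CPM of at least 2, group means subtracted), and in each pathway list any gene with an adjusted, or else unadjusted, edgeR p under 0.05, otherwise the gene of highest mean FPKM. Some genes that this rule names are not reported here. Other settings tried were RLE factors, library totals, no filter and a stricter filter, DESeq2 1.42.0, and limma 3.58.1 (voom on counts, and trend on log2 FPKM plus 1 or 0.1), marker scores as covariates, and each mouse left out. Fits without the mice of lowest medium spiny neuron score or highest thalamic score were added after seeing the data.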

Additional observations from a re-analysis of the deposited data

Results flagged for a closer look

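A sample far from the other 3 of its group was looked for in 34 groups of 4 values (the 6 receptor genes in FPKM and the marker scores), and 3 were found, where chance gives about 1 in 20 groups. Grm4 in DF-1018 was 12.4 FPKM, against 8.29 to 8.61 in the other 16p11.2+/- mice, and the gap was 0.924 of the range of the group. The thalamic neuron score of WT-1063 was 7.24, where the rest of the WT group had 3.44 to 3.58, with a gap of 0.963 of the range. The cholinergic interneuron score of DF-1037 was 2.34, with a gap of 0.937 of the range below the other 16p11.2+/- mice. Without DF-1018 the log2 fold change of Grm4 was -0.17, and without WT-1063 it was 0.15.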

How the results depend on the processing

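None of the 6 receptor genes passed an adjusted p of 0.05 under any of the 21 alternatives, and the lowest adjusted p was 0.645. Exact p on FPKM was 0.0857 to 1 over 9 alternatives per gene. Of 126 log2 fold changes recomputed, 106 kept their direction and 20 reversed. Grm3 (-0.36 to -0.01), Grm7 (0.0015 to 0.14) and Grm8 (-0.55 to -0.06) kept it throughout. Grm4, near 0, reversed to 0.0054 with DESeq2, 0.0033 with RLE factors, 0.012 with library totals, 0.015 and 0.017 with limma-trend at pseudocounts of 1 and 0.1, 0.095 with the medium spiny neuron score and 0.15 without DF-1037 and DF-1062. Its range with each mouse left out was -0.17 to 0.15. Grm2 reversed to -0.22 with the thalamic score, -1.11 with the medium spiny neuron score, -1.41 without DF-1037 and DF-1062 and -0.75 without the 4 mice of highest thalamic score, and ranged from -0.16 (without DF-1062) to 0.84 with each mouse left out. Grm5 reversed to 0.02 with the thalamic score, 0.061 with the medium spiny neuron score and 0.15 without DF-1037 and DF-1062. Its range with each mouse left out was -0.42 to -0.07. The difference of mean FPKM of Grm4 was -0.0889 on CPM and -0.896 to 1.03 with each mouse left out, and that of Grm2 was -0.197 to 1.47. The cause of these changes was not tested. Over the transcriptome, 17 genes were lower and 3 higher. Higher genes numbered 5 with DESeq2 and 0 with at least 10 counts in every mouse, a filter that drops genes near 0 in WT. Lower genes numbered 8 with the thalamic score, 11 with the cortical score, 9 without DF-1037 and DF-1062, 0 without the 4 mice of highest thalamic score, which left 1 16p11.2+/- mouse that is assumed to vary like WT, and 6 to 15 with each mouse left out. Scaling moved the median of all genes by at most 0.021. No paired analysis was possible because no replicate number occurs in both groups. With 4 mice a group, the intervals of Grm2 and Grm8 leave changes of 2-fold undecided. How reads in the exon part shared by Grm2 and Gm28111 were counted is not known.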

Other observations

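Grm5 lies on the chromosome that carries the deletion, but its end is 38624.7 kb before Mapk3, a gene of the deleted segment. The nearer gene Tyr, which encodes tyrosinase, ends 90.7 kb before the start of Grm5. Tyr had 3 to 7 counts in WT mice and 147 to 170 counts in 16p11.2+/- mice (edgeR, log2 fold change 5.10, SE 0.25, adjusted p = 0.000168). Grm5 itself overlapped between the groups. Tyr was chosen after its values were seen. Counts per gene do not show from which place in the genome the Tyr reads came, and this was not tested.

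Adcy8, a calcium-stimulated adenylyl cyclase, had 1.17 to 3.13 FPKM in WT and 1.92 to 5.09 FPKM in 16p11.2+/- mice (edgeR, log2 fold change 0.87, SE 0.39, adjusted p = 0.859). Plcb4, a phospholipase C that Gq activates, had 6.87 to 21.6 FPKM and 8.81 to 25.9 FPKM (log2 fold change 0.71, adjusted p = 0.859), and Slc17a6, a vesicular glutamate transporter that is also on the thalamic list, had 1.58 to 44.7 FPKM and 5.47 to 56.0 FPKM (log2 fold change 1.2, adjusted p = 0.864). These 3 were named after their values were seen, for the largest positive values in their lists.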
